A study of Mus musculus with 39 samples.

Results

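Testis RNA of 2 descendant generations of Kdm6a knockout males was compared, with 4 libraries of the second generation (F2) set against 3 of the first (F1). These 7 libraries, chosen by their sample titles, are part of 17 whole-testis RNA-seq libraries in a series of 39 samples. The ancestors were conditional knockout (cKO) males, labelled Kdm6a fl/y; Ddx4-Cre+, in which Cre recombinase from a Ddx4 driver, active in germ cells, removes the floxed allele. F1 and F2 males share one genotype, Kdm6a fl/y; Cre-, and differ in the labels only as "F1 of cKO" and "F2 of cKO". All of them thus carry the floxed allele and none carries Cre, as is also true of the control males. No label gives an age, a strain, the parents, a litter or a batch, and p-values therefore measure only the spread between these libraries. Strain, litter and inherited alleles that differ between families cannot be told apart from generation here.

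Kdm6a, also called Utx, is an X-linked gene whose product removes methyl groups from lysine 27 of histone H3 (H3K27me3), a mark of silenced genes. A male receives his X chromosome from his mother, so the sons of a knockout male do not inherit the X chromosome that lost the gene in his germ cells. The title of the series concerns the gene's part in spermatogenic expression over several generations. The comparison of F2 with F1 asks what separates the testis RNA of these generations when both lack Cre.

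PolyA RNA of dissociated testis cells was sequenced as 100 bp read pairs. Libraries held 22421896 (F2 4) to 30236826 (F1 1) estimated counts over the same 118489 transcripts. F1 libraries held 27405050 to 30236826 and F2 libraries 22421896 to 27842853 estimated counts. The files list transcripts by Ensembl identifier and pair none of them with a gene. Levels of Kdm6a and of testis cell markers were therefore not read here, and no function is given for a transcript. For the same reason the labelled tissue was not checked against its markers.

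Few transcripts passed the test with these 7 libraries. Of 55571 transcripts tested, 24 were higher and 41 lower in F2, by edgeR's quasi-likelihood test at a Benjamini-Hochberg adjusted p under 0.05. This is 0.117% of those tested, 0.0432% higher and 0.0738% lower. DESeq2 called 525 of the same transcripts, so the number called depended on the tool and is no count of all that differed. Which tool came nearer to that count was not tested. The smallest adjusted p was 2.49e-05, and 3577 transcripts had an unadjusted p under 0.05. The median log2 fold change over all tested transcripts was -0.00184. At all 65 called transcripts the range of CPM (estimated counts scaled to the library total) in F1 did not overlap that in F2. Over all tested transcripts, 4.58% had such ranges with F2 above and 3.42% with F2 below. One pair among the 65 had identical counts in every library and is 1 measurement.

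**Figure D1:**
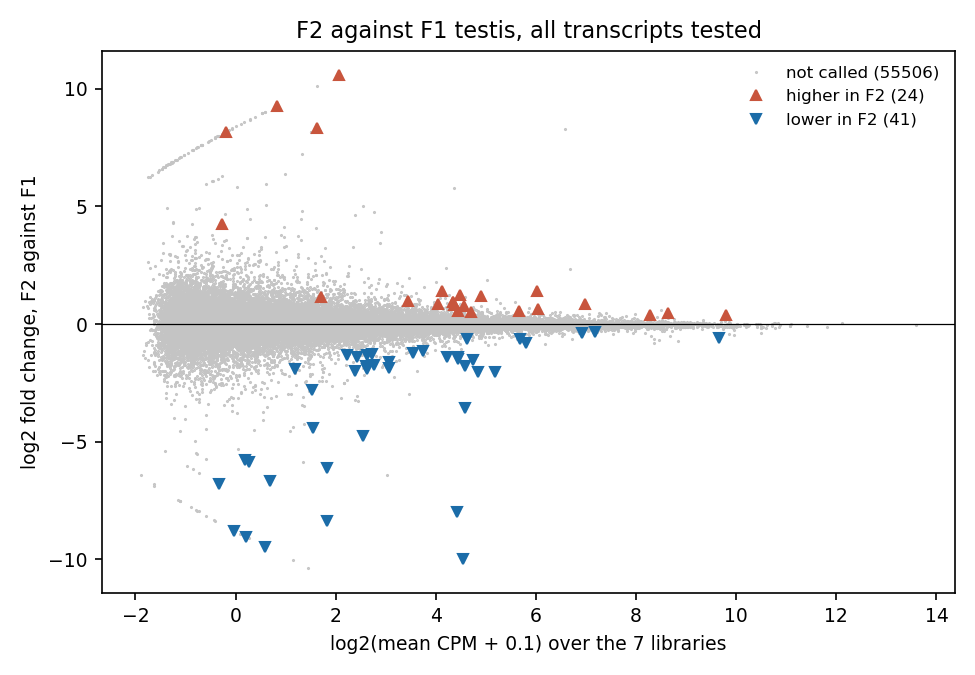
Log2 fold change of F2 against F1 (y axis) by log2 of the mean CPM plus 0.1 over the 7 libraries (x axis), with 1 point per transcript tested. The 24 transcripts higher in F2 (upward triangles) and 41 lower in F2 (downward triangles) spread over the x axis, while nearly all others lie near 0 once their level is high.

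Calls were fewest, for the number tested, among transcripts of low level. Of 16880 tested transcripts with a mean under 1 CPM over the 7 libraries, 4 were called, and of 25251 at 1 to 10 CPM, 25 were called. At 10 to 100 CPM the count was 29 of 11433, and at 100 CPM or more it was 7 of 2007.

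More transcripts were called lower than higher in F2, but this order turned when some libraries were left out. Without F1 1 there were 22 higher and 17 lower, and without F1 3 there were 53 higher and 42 lower. Among the 33 lower transcripts that were above 3 counts in at least 1 library of each generation, the median log2 fold change was -1.63, and 27 had fallen by at least 1 on that scale. Among the 20 such higher transcripts the median was 0.85, and 6 had risen by at least 1. The 12 other called transcripts had at most 3 counts in every library of 1 generation. Some of the 33 lower ones lay just above this limit. The largest log2 fold change among the 33 was -9.96, from a mean of 54.39 CPM in F1 to 0.0537 CPM in F2. No F2 library held more than 4.57 counts of that transcript.

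The first of the lower transcripts was ENSMUST00000011895, of 8747 bases. It held 64.41, 62.11 and 63.17 CPM in F1 libraries 1 to 3, and 16.12, 15.59, 15.43 and 15.15 CPM in F2 libraries 1 to 4. The means were 63.2 ± 1.15 CPM (SD, n = 3) in F1 and 15.6 ± 0.409 CPM (n = 4) in F2. Its log2 fold change was -2.04 (SE 0.051, edgeR adjusted p 2.49e-05). Controls 1 to 4 held 56.91, 46.76, 62.44 and 59.87 CPM. All 4 controls were thus near F1, and F2 stood apart from both.

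ENSMUST00000022467, of 1878 bases, had the second smallest adjusted p among the lower transcripts. F1 libraries held 49.69, 51.01 and 49.84 CPM, and F2 libraries 5.285, 3.96, 4.157 and 3.783 CPM. The log2 fold change was -3.57 (SE 0.113, edgeR adjusted p 7.79e-05), an 11.7-fold difference between the means of 50.2 ± 0.724 CPM (SD, n = 3) and 4.3 ± 0.677 CPM (n = 4). Controls 1 and 4 held 48.89 and 59.29 CPM, near F1, whereas controls 2 and 3 held 1.611 and 2.861 CPM, near or below F2. The controls, of a single genotype label, therefore spanned the whole distance between the generations.

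ENSMUST00000170953, of 589 bases, led the higher transcripts. It held 29.13, 32.18 and 36.74 CPM in F1 libraries and 93.05, 82.29, 90.36 and 89.61 CPM in F2 libraries. The log2 fold change was 1.42 (SE 0.091, edgeR adjusted p 0.00328), from 32.7 ± 3.83 CPM (SD, n = 3) in F1 to 88.8 ± 4.6 CPM (n = 4) in F2. The controls again fell into a high and a low pair, now with other members, as controls 1 and 2 held 88.35 and 87.9 CPM and controls 3 and 4 held 37.23 and 33.73 CPM.

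ENSMUST00000175680, of 1969 bases, came next among the higher transcripts, together with another transcript of the same length and identical counts that is left unnamed. F1 libraries held 13.09, 12.6 and 13.5 CPM, and F2 libraries 24.98, 25.78, 25.26 and 25.61 CPM. It rose by 0.94 (log2, SE 0.064, edgeR adjusted p 0.00384), from 13.1 ± 0.449 CPM (SD, n = 3) to 25.4 ± 0.359 CPM (n = 4). Controls 1, 3 and 4 held 26.92, 23.63 and 21.77 CPM, near F2, and control 2 held 13.91 CPM, near F1.

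On the TPM scale, which corrects for transcript length, ENSMUST00000170953 was the most abundant of these 4, at a mean of 128 TPM in F1 and 352 TPM in F2. ENSMUST00000022467 went from 44.1 to 3.85 TPM, ENSMUST00000011895 from 10.8 to 2.72 TPM and ENSMUST00000175680 from 10.9 to 21.6 TPM.

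**Figure D2:**
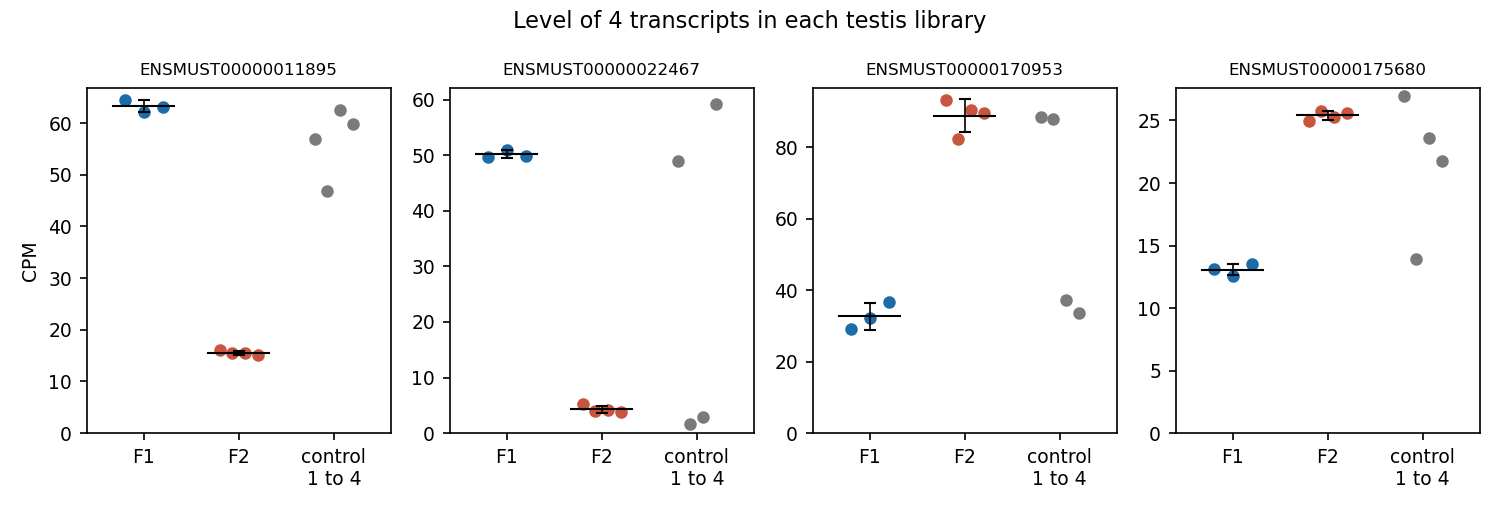
CPM (y axis, from 0) of the 4 named transcripts in each F1, F2 and control library (x axis), with 1 point per library and, for F1 and F2, the mean and SD. F1 and F2 do not overlap in any panel, which the rule that named these transcripts required. In the second to the fourth panel the controls lie at both levels.

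Controls lay on both sides at most called transcripts, as they did at most of all tested. Each control was placed by the side of the midpoint between the F1 and F2 means on which it lay, on a log2(CPM + 0.1) scale. At 51 of the 65 called transcripts controls 1 to 4 lay on both sides, 18 of them higher and 33 lower in F2. This is 78.5%, near the 78.1% of all tested transcripts. At 11 (16.9%, against 11.2% of all tested) all 4 controls lay on the F1 side, 3 of them higher and 8 lower in F2. These 11 include the set of 3 consecutive entries given under other observations, which may not be independent. At 3 (4.62%, against 10.7% of all tested), all higher in F2, all 4 controls lay on the F2 side. The controls took no part in choosing these transcripts.

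At 24 of the 65 transcripts (36.9%) controls 1 and 4 lay on the F1 side and controls 2 and 3 on the F2 side, against 4.89% of all tested and 6.12% of the 4379 transcripts that had non-overlapping ranges but were not called. Nearly all of these 24 were lower in F2. Among the other called transcripts, the lower ones did not outnumber the higher ones. The 24 include 4 transcripts of 1 length with like levels and a pair at consecutive entries. Whether the members of either set share reads was not tested. At 7, among them the pair with identical counts, control 2 alone lay on the F1 side. At 6, controls 1 and 2 lay with F1 and controls 3 and 4 with F2, and at 6 others this was the other way round. Over all tested these 3 arrangements took 5.38%, 5.41% and 5.54%. By library, control 1 lay on the F1 side at 46 transcripts, control 2 at 30, control 3 at 20 and control 4 at 47. Those are 70.8%, 46.2%, 30.8% and 72.3% of the called transcripts, against 51.4%, 48.7%, 50.8% and 49.8% of all tested, and the differences in shares were not tested.

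At called transcripts the control levels were mostly near the mean of 1 generation or the other. With the F1 mean set to 0 and the F2 mean to 1, 121 of the 260 control values (65 transcripts in 4 libraries) lay within 0.25 of the F1 mean and 95 within 0.25 of the F2 mean. Another 29 lay between those zones, 6 lay beyond F1 and 9 beyond F2. The share within 0.25 of either mean was thus 83.1%, against 43.7% at the 4379 transcripts whose ranges did not overlap but that were not called, and 21.6% over all tested. This difference in shares was not tested, and the zones are wider in log2 units where the generations differ more.

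**Figure D3:**
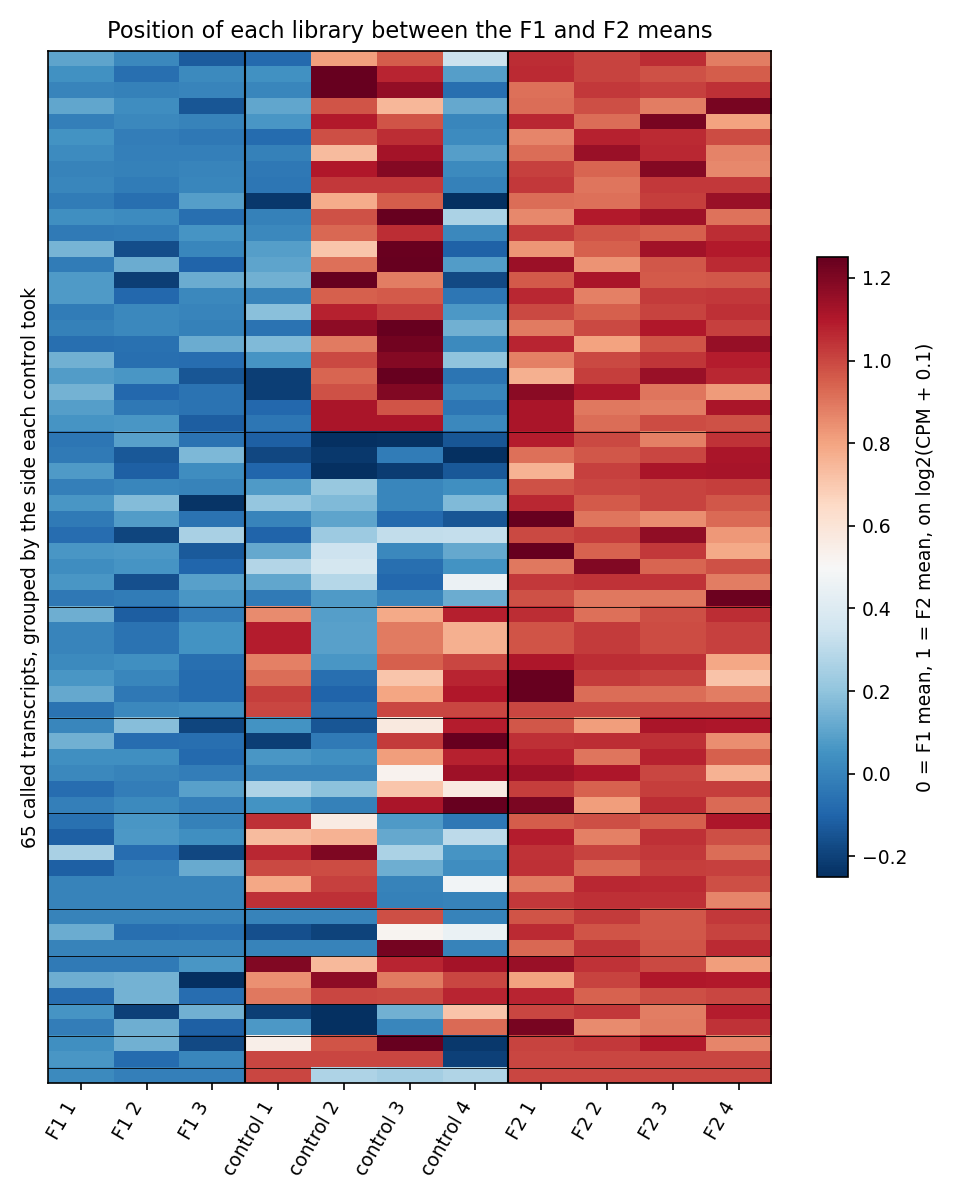
Position of each library (columns) between the F1 mean (0, blue) and the F2 mean (1, red) on the log2(CPM + 0.1) scale for the 65 called transcripts (rows), in blocks by the side each control took, with values beyond the colour scale shown at its ends. The top block holds the 24 transcripts at which controls 1 and 4 lay on the F1 side and controls 2 and 3 on the F2 side, and the next block the 11 at which all controls lay on the F1 side.

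Spread among controls was wide at these transcripts. The median log2 range over the 4 controls was 1.65 at the called transcripts and 0.626 over all tested. It was at least 1 at 39 of the 65 (60%), against 30.1% of all tested. With means of at least 1 CPM only, the medians were 1.51 over 61 called and 0.466 over 38691 tested transcripts. Within F1 the median range at called transcripts was 0.195 and within F2 it was 0.298, against 0.493 and 0.616 over all tested, but the test that chose the transcripts favours such narrow ranges.

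Presence in 1 generation and near absence from the other marked 12 called transcripts, with at most 3 estimated counts in every library of the lower group. Called transcripts just above this limit are left out here. They include the transcript with 54.39 CPM in F1 and at most 4.57 counts in each F2 library. Of these, 8 were near absent in F2, with 1.2 to 8.91 CPM in F1 libraries. The other 4 were near absent in F1, with 1.1 to 9.06 CPM in F2 libraries. Set against a floor of 3 counts per library, the level of these 12 in the other generation was at least 12-fold to at least 65.3-fold higher. At 10 of the 12, at least 1 control also had no more than 3 counts while another had 1 CPM or more. At 1 other of the 12 every control had 1 CPM or more. The same shares were not counted over uncalled or all tested transcripts, so no trait of the called ones is read from them.

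Over all tested transcripts, 36 had at least 10 counts in every F1 library and at most 3 in every F2 library, of which 8 were called. In the opposite direction there were 14, of which 4 were called. These limits are raw counts, not scaled for depth, and F1 libraries were deeper on average. They also had to hold in 3 F1 but 4 F2 libraries. The part of either in the difference between 36 and 14 was not tested.

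Whole libraries differed little by generation. Over the 55571 transcripts, Pearson's r of log2(CPM + 1) was 0.9735 to 0.9763 within F1, 0.971 to 0.9752 within F2 and 0.9699 to 0.9743 between the generations; these are correlations across transcripts, which are not independent replicates. Controls 1 to 4 correlated with each other at 0.972 to 0.9755, with F1 at 0.9713 to 0.9756 and with F2 at 0.9696 to 0.9749. By median, pairs of F1 with F2 were the least alike, at 0.9717, against 0.973 to 0.9752 for the other kinds of pair. The part of depth in these correlations was not tested. The mean distance (1 minus r) between generations exceeded the mean within them by 0.00185, with a two-sided exact permutation p of 0.0286. This is the smallest value that the 35 assignments of 7 libraries to groups of 3 and 4 can give. Without F1 2 the excess was 0.00115 (exact permutation p 0.133), and the grouping by generation was then no longer the most extreme assignment.

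**Figure D4:**
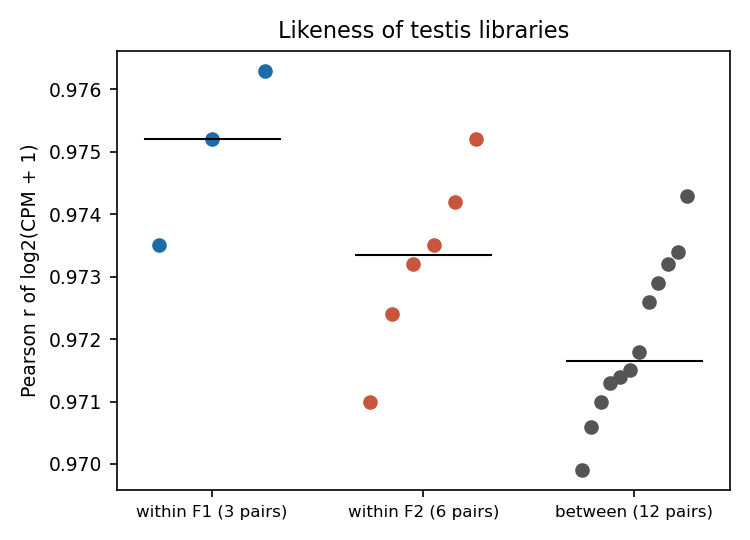
Pearson's r of log2(CPM + 1) over 55571 transcripts (y axis, not from 0) for each pair of libraries within F1, within F2 and between the generations, with medians as lines. Pairs between generations reach from 0.9699 to 0.9743 and overlap the pairs within them.

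Of 4 technical measures, the share of counts held by the 100 most abundant transcripts separated the generations, at 12.932% to 13.074% in F1 (SD 0.0723, n = 3) and 12.513% to 12.712% in F2 (SD 0.0846, n = 4; exact permutation p 0.0286, adjusted over the 4 measures 0.114). Controls 1 to 4 held 12.852%, 12.945%, 13.086% and 13.246% in their 100 most abundant transcripts, all above the F2 range. Mean depth was 29000000 counts in F1 and 24700000 in F2 (exact permutation p 0.0857, adjusted 0.171). The number of transcripts with at least 1 TPM was 44000 ± 1160 in F1 (SD, n = 3) and 44700 ± 237 in F2 (n = 4; exact permutation p 0.343, adjusted 0.457). The median transcript length minus effective length, which depends on the fragment length, was 208.2 to 226.7 bases in F2 and 214.2 to 222.1 in F1 (exact permutation p 0.543, adjusted 0.543). The part of depth and of the abundant transcripts in the calls was not tested.

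The number of calls depended on single libraries and on the tool. Of the 65 transcripts, 19 were called whichever library was left out, 6 of them higher and 13 lower in F2, and 13 were called in none of those 7 fits. Without F1 1, F1 2, F2 1, F2 2, F2 3 or F2 4 there were 39, 26, 34, 46, 25 and 31 calls. Without F1 3 there were more than with all libraries, at 95. DESeq2 called 257 transcripts higher and 268 lower, all 65 among them. With controls 1 to 4 in the fit as a group of their own, so that their spread counted too, edgeR called 6 higher and 10 lower, 14 of them among the 65. ENSMUST00000011895 was called there, whereas ENSMUST00000022467, ENSMUST00000170953 and ENSMUST00000175680 were not, at edgeR adjusted p of 0.46, 0.326 and 0.235. Their log2 fold changes there were -3.57, 1.42 and 0.94, as without the controls. That fit also tested another number of transcripts, 59325, and the part of the spread alone in the lost calls was not tested.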

How the data were processed

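PolyA RNA-seq of whole testis was used for 3 F1 and 4 F2 libraries, with controls 1 to 4 for levels. Controls 5 to 7 of the same label were left out, because their files list another set of 117486 transcripts, of which 13 match those of F1 by identifier and version (116258 by identifier alone). The deposited files hold, per the file headers, an estimated count and a TPM value for each transcript. The submitters' processing notes name FastQC and kallisto 0.45.0, and the builds mm39 and mm10 with no stated role; no source used here states the transcript index. Estimated counts are not normalized in the deposited files, and TPM was scaled by effective length. Reads that fit several similar transcripts are divided among them by estimation, so similar transcripts are not independent.

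The F1 and F2 libraries alone were fitted with edgeR 4.0.16 under R 4.3.3, on rounded counts after filterByExpr and TMM scaling; DESeq2 1.42.0 and limma 3.58.1 were alternatives. Tested transcripts held 99.5% to 99.6% of the counts. Standard errors were derived from the test statistic. Printed CPM values use the total of each library. The test was tried on simulated counts for this comparison, where it missed most of the smaller changes placed and part of the larger ones. Few calls therefore do not mean few changes. The share of false calls among its calls in that 1 simulation was above the 0.05 threshold. No 2 libraries agreed within sampling noise (chi-square per degree of freedom 9.3 to 15.2), so none was treated as a duplicate. This comparison of estimated counts cannot show whether 2 libraries came from 1 animal.

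The test per gene and the gene lists that had been planned were not made, because no table used here pairs the transcript identifiers with genes. Named transcripts are the 2 per direction with the smallest adjusted p and non-overlapping ranges, ties by fold change and identifier. The comparison, the lists and the rule were chosen with earlier results of these data known, and the counts of control sides, near-absent transcripts, shared lengths and neighbouring entries were chosen after the values were seen.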

Additional observations from a re-analysis of the deposited data

How the results depend on the processing

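The count of 65 became 525 with DESeq2, 102 when at least 50 counts were required in each library of a group, 28 with fragment length as a covariate and 16 with controls 1 to 4 added for the spread. It stayed within 1.5 times of 65 with limma-voom (53), RLE size factors (64), total counts (68), no filter (63) and unrounded counts (69). Leaving out 1 library gave 25 to 95 calls. With the replicate number as a block, the count by edgeR was 0 (3210 had a raw p under 0.05), and the 4 named transcripts had adjusted p of 0.0988, 0.0988, 0.364 and 0.459 in the order of the report, at log2 fold changes of -2.03, -3.52, 1.42 and 0.935; DESeq2 was not run with the block. No label pairs the libraries by number. Deviations of F1 and F2 libraries with the same number correlated at -0.00692, -0.00617 and 0.0246 across transcripts. With unlike numbers they correlated at -0.0341 to 0.0383. Such correlations over all tested transcripts cannot show or exclude a pairing that touches few of them. F2 4 has no F1 library of its number, and the block leaves fewer degrees of freedom. Leaving out 1 library, the distance between generations was 0.00115 to 0.00227 and the difference in the share of the 100 most abundant transcripts -0.394 to -0.323 percentage points; the smallest exact permutation p is then 0.0667 without an F1 and 0.1 without an F2 library. The distance gave this smallest p except without F1 2, where p was 0.133. Results per gene were not run as alternatives. The part of depth in the few calls at low levels was not tested.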

Other observations

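Called transcripts stood at consecutive entries of the files in a pair that fell together and in a set of 3 that moved in opposite directions. In the pair, means went from 11.1 to 3.41 CPM and from 9.16 to 3.73 CPM (log2 fold changes -1.72 and -1.32). Both sets were noticed after their values were seen, and no source used here says how the entries are ordered. In the set of 3, the first, of 675 bases, fell from 73.3 ± 3.34 CPM (SD, n = 3) in F1 to 42.3 ± 2.98 CPM (n = 4) in F2. The second, of 1457 bases, rose from 749 ± 31.7 to 990 ± 23.4 CPM, and the third, of 1368 bases, fell from 981 ± 79.9 to 670 ± 11.9 CPM. Controls 1 to 4 lay at 59.7 to 75.9, 689 to 744 and 905 to 976 CPM, each outside the F2 range. Summed over the 3 entries, F1 libraries held 1710 to 1930 CPM and F2 libraries 1670 to 1740 CPM, so that the sums overlapped where each entry alone did not.

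Of 19 tested transcripts of 997 bases, 4 were called, all lower in F2, with log2 fold changes from -1.53 to -1.39, where 0.0738% of all tested transcripts were called lower. The length was chosen because called transcripts shared it. They held 27.6 to 43.9 CPM in F1 libraries and 9.48 to 17.05 CPM in F2 libraries. Whether these transcripts are similar in sequence and share reads was not tested. In all, 1407 tested transcripts had counts identical to those of another transcript in all 7 libraries.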
